A study of Mus musculus with 8 samples.

Results

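The genes described here were higher under nutrient restriction in whole cultures of spermatogonia with their feeder cells and lower when retinoic acid was added to the restricted medium. They were chosen by their own readout, the mean CPM (the count of a gene over the total count of its library, times 1000000) in 3 of the 4 conditions of the study. A gene was kept where its mean was at least 2 CPM under nutrient restriction, where that mean plus 0.5 was at least 2 times the vehicle mean plus 0.5, and where the mean with retinoic acid under restriction plus 0.5 was at most 0.5 of it. This left 88 of the 55421 genes of the table, 84 of them protein coding and 4 antisense or intergenic RNAs. Of 14736 genes with a mean of at least 2 CPM under restriction, 585 met the first fold and 380 met the second. RNA was sequenced from 4 conditions with 2 libraries each, described by the study as independent biological replicates. The spermatogonia, of a C57BL/6XDBA/2 F1 hybrid background, were isolated from 6-day-old pups and grown on irradiated embryonic fibroblasts as feeder cells. Veh cells stayed in complete medium for 2 days. In the RA group, 100 nM retinoic acid was added to that medium for the same 2 days. NR cells were kept for 2 days in a medium with 90% Earle's balanced salt solution (EBSS) and 10% complete medium. NRRA cells received the NR medium with 100 nM retinoic acid for the same time. All 4 conditions shared the feeder cells and the germ cell origin, so no group held germ cells alone.

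Retinoic acid, made from vitamin A, enters the nucleus and binds retinoic acid receptors, which sit on DNA with retinoid X receptors and switch target genes on or off. In the testis it drives undifferentiated spermatogonia into differentiation and toward meiosis. Fibroblasts respond to it too, and many of the genes below encode proteins that fibroblasts secrete, such as proteoglycans, pentraxins, chemokines and the activin inhibitor follistatin. Nutrient restriction by this medium dilutes nutrients and growth factors together. The question asked of these genes is what retinoic acid did to them in complete medium, since the RA libraries did not enter their choice.

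Library totals ranged from 19261333 to 30023585 counts, so 1 count stood for 0.0333 to 0.0519 CPM, and replicate libraries differed by more than sampling noise in each condition. The members together took 0.487% and 0.494% of the counts in NR, against 0.126% and 0.135% in Veh. The share was 0.107% and 0.106% with RA, and 0.186% and 0.187% with NRRA. All 22 fibroblast markers of a textbook list were above 0. Their summed level was 22640 to 22750 CPM in Veh, 19290 to 20390 in RA, 35500 to 36940 in NR and 29890 to 30650 in NRRA. The NR mean of this sum was 1.596 times the Veh mean, the NRRA mean 0.836 of the NR mean, and the RA mean 0.874 of the Veh mean. Other lists did not all move this way. Myofibroblast and contractile genes summed to 3631 and 3917 CPM in Veh and 7856 and 8135 in NR. Collagen and matrix genes summed to 21300 and 21900 CPM in Veh, 19910 and 20430 in NR and 14270 and 13820 in NRRA. Metalloproteinases, their inhibitors and related proteases summed to 6430 and 6512 CPM in Veh and 5220 and 5272 in NR. Markers of undifferentiated spermatogonia, 16 genes with 0 of them at zero, summed to 1237 to 1314 CPM in Veh, 712 to 722 in RA, 1131 to 1164 in NR and 497 to 503 in NRRA. The sum of the 8 general germ cell markers was lowest in Veh, at 931.9 and 952.9 CPM. With RA it was 1037 and 1119 CPM, under NR 1213 and 1179, and with NRRA 1243 and 1279. From Veh to NR, the mean rose in 7 of these 8 genes. In whole cultures, fewer cells of a type and less RNA per cell cannot be told apart. Where the folds of the rule were taken per summed fibroblast marker, an alternative chosen after seeing the data, 34 of the 88 members still met them.

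**Figure D1:**
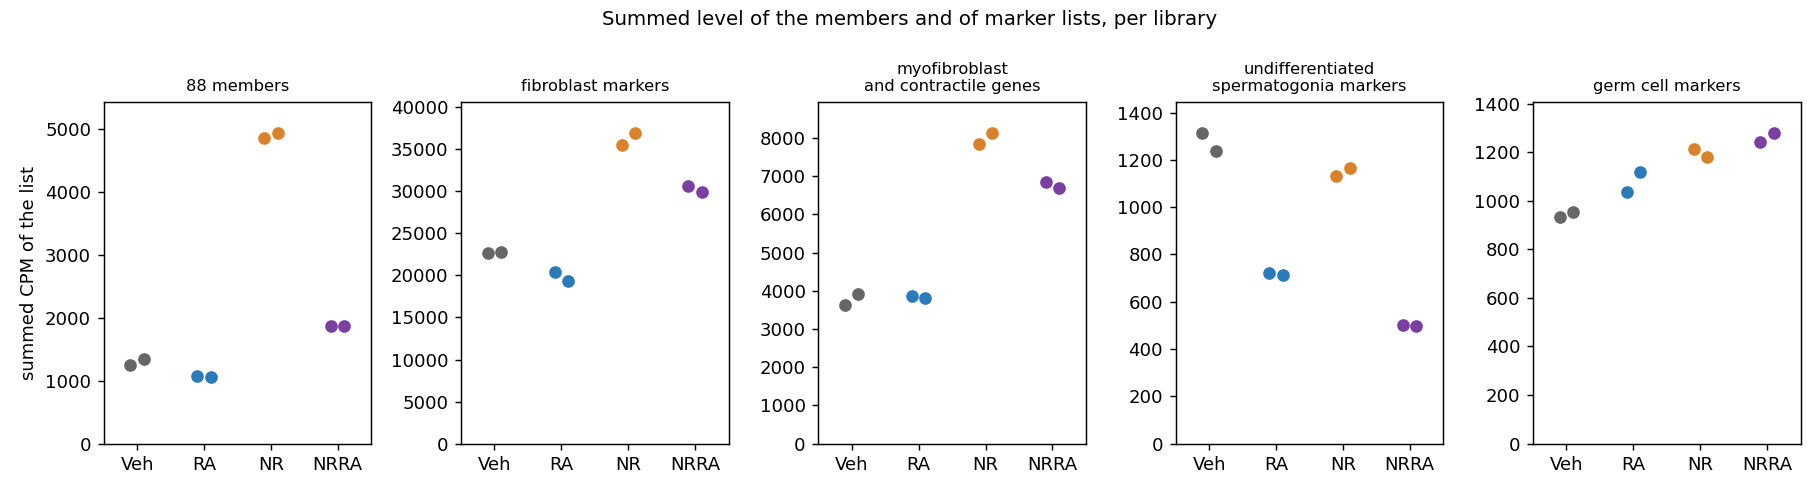
Summed CPM of the members and of 4 marker lists, with 1 point per library and the vertical axis from 0. The members' sum stood highest in NR, the fibroblast and myofibroblast sums were highest in NR and next highest in NRRA, and the sum of undifferentiated spermatogonia markers was lowest in NRRA.

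The values that chose the members are given as a description. In each of the 88 genes both NR libraries lay above all Veh and NRRA libraries. The rule asked for 2-fold gaps between the means of these same libraries, and the share over all genes was not computed. NR means ran from 2.03 to 550.1 CPM with a median of 12.1 CPM, 13 members had at least 100 CPM and 34 had less than 10 CPM. The fold of NR over Veh, with 0.5 CPM added to both, ran from 2.02 to 60.9 with a median of 2.96, and 18 members had a fold of at least 5. The fold of NR over NRRA ran from 2.01 to 13.5 with a median of 2.93. Counted as a share of the rise from Veh to NR, NRRA kept between -56.3% and 43.1%, with a median of -2.01%, where 0 is the Veh mean. The word reversed thus covered a range, since 47 members had a NRRA mean below the Veh mean and 41 had one at or above it. Members nearest inside the thresholds were *Scn10a* at 2.03 CPM in NR, *Ccl8* with a NR over Veh fold of 2.02, and *Itgb8* with a NR over NRRA fold of 2.01. Just outside were *Mobp* at 1.85 CPM, *Ndrg1* with a NR over Veh fold of 1.97 and *Tnfrsf11b* with a NR over NRRA fold of 1.998. When the rule was applied to the libraries of replicate 1 alone it chose 92 genes, of which 81 were members. In replicate 2, NR lay above Veh and above NRRA in all 92. There it was at least 2 times Veh in 78 and at least 2 times NRRA in 86, and 72 met the whole rule. Chosen on replicate 2, 93 genes were found, of which 79 were members. In replicate 1, NR lay above both in all 93. There it was at least 2 times Veh in 82 and at least 2 times NRRA in 77, and 72 met the whole rule. The same conditions chose the genes, and shares over all genes were not computed. These counts therefore only describe how alike the replicate libraries were.

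**Figure D2:**
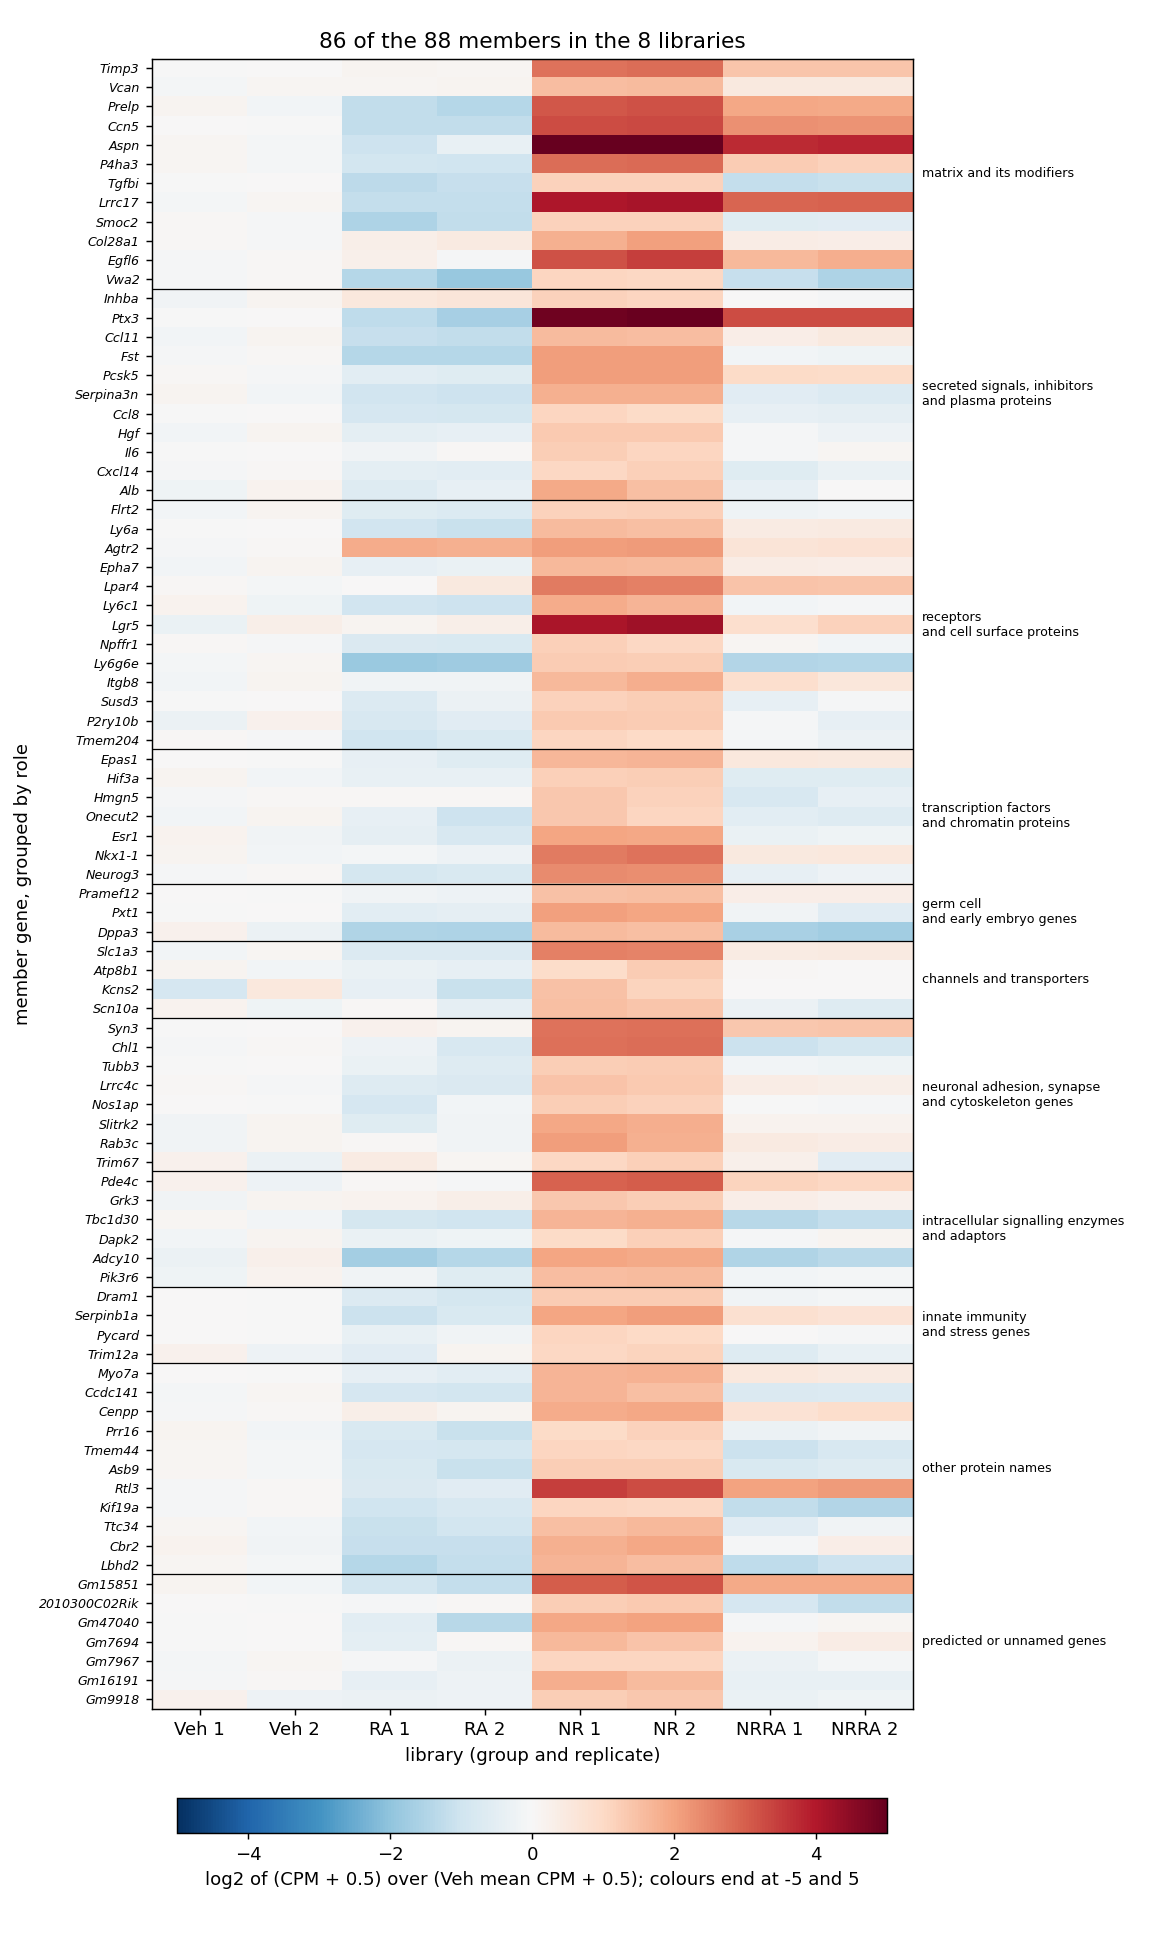
Level of 86 of the 88 members in the 8 libraries as log2 of CPM plus 0.5 over the Veh mean plus 0.5, with genes in rows by role and libraries in columns. The NR columns are red in all rows shown because the rule asked for it, while the RA columns are blue in most rows and red in *Agtr2*.

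Retinoic acid alone lowered a large part of these genes. A gene was called where edgeR's quasi-likelihood test, adjusted by Benjamini-Hochberg over the 20477 genes tested, gave an adjusted p under 0.05 and the fold change was at least 2. All 88 members passed the filter on low counts. In RA vs Veh, 37 of 88 members (42.0%) were called lower, against a background of 2.75% of all genes tested. Only *Agtr2* was called higher (1.14%), against a background of 4.74%. Both RA libraries lay below both Veh libraries in 61 members (69.3%), where 25.5% of all genes did so, and above them in 8 members (9.09%), where 42.3% did. Such positions of libraries use CPM by column totals, without TMM. The TMM factors were 0.958 and 0.959 in Veh and 1.02 and 1.035 in RA, so RA stands higher against Veh in CPM than in the fit. The median log2 fold change of the members was -0.78, beside -0.02 over all genes tested, and it was the same when genes whose libraries of 1 group all held 3 counts or fewer were set against 3 counts. The RA libraries took no part in the choice, but the Veh libraries did, and a rule that asks for low Veh values tends to raise RA vs Veh. The other 497 genes that rose at least 2 times from Veh to NR had a median of 0.00, with 18 of them (3.62%) called lower and 55 (11.1%) called higher. That set was also chosen with the Veh libraries, and it holds the genes that missed the fold of NR over NRRA. Both sets were thus sorted by the response to retinoic acid under restriction. The difference between both sets was not tested. Of the 22 fibroblast markers, 2 were called higher and 0 lower in RA vs Veh, with a median log2 fold change of -0.27. Of the 16 undifferentiated spermatogonia markers, 0 were called higher and 10 lower, with a median of -1.805. The part of either cell type in the members' fall was not tested.

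**Figure D3:**
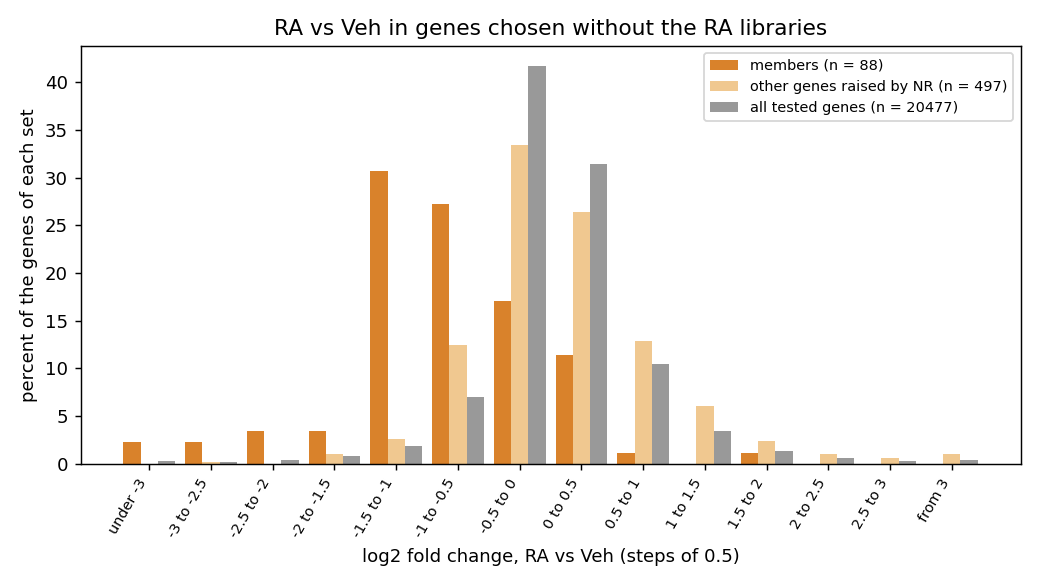
Percent of genes (vertical axis) in each step of 0.5 of the log2 fold change in RA vs Veh (horizontal axis), for the 88 members, the other 497 genes raised by NR and all 20477 genes tested. Members are most frequent between -1.5 and -0.5, the other sets between -0.5 and 0.5.

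The extracellular matrix group had 12 members, of which 7 were called lower in RA vs Veh and 0 higher. *Prelp*, a small leucine-rich proteoglycan that anchors basement membrane to connective tissue (chromosome 1, 133910304 to 133921414, minus strand, GRCm38), had 28.6 and 23.95 CPM in the Veh libraries, 10.9 and 9.36 with RA, 231 and 244 in the NR and 101 and 98.96 in the NRRA libraries. Both RA libraries lay below Veh, and the log2 fold change in RA vs Veh was -1.497 ± 0.095 (SE, edgeR adjusted p = 1.28e-12). *Ccn5*, a matricellular protein of the CCN family (chromosome 2, 163820861 to 163833146, plus strand), stood at 6.54 and 6.49 CPM in RA and 16.3 and 15.9 in Veh, and at 159.7 and 165 in the NR and 80.7 and 77.5 in the NRRA libraries. It fell in RA as well, and the log2 fold change in RA vs Veh was -1.41 ± 0.096 (SE, edgeR adjusted p = 5.42e-12). *P4ha3*, a subunit of the prolyl hydroxylase that modifies collagen chains, was at 94.8 and 96.8 CPM in NR and 32.4 and 30.3 in NRRA, against 14.3 and 12.4 in Veh and 6.75 and 6.49 in RA. Its RA libraries lay below Veh too, and the log2 fold change in RA vs Veh was -1.12 ± 0.11 (SE, edgeR adjusted p = 3.75e-09). *Lrrc17*, a secreted leucine-rich repeat protein, had 4.22 and 4.84 CPM in the Veh libraries, 1.71 and 1.72 with RA, 83.1 and 87.5 in the NR and 37.2 and 38.5 in the NRRA libraries. Here the log2 fold change in RA vs Veh was -1.496 ± 0.18 (SE, edgeR adjusted p = 1.24e-07), with a NR over Veh fold of 17.1.

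*Tgfbi*, a matrix protein named for its induction by TGF-beta, and *Smoc2*, a calcium-binding matricellular protein, differed from these 4 in NRRA. *Tgfbi* stood at 16.1 and 17.7 CPM in RA and 39.99 and 40.3 in Veh, and at 89.8 and 89.1 in the NR and 17.4 and 18.1 in the NRRA libraries. Its RA and NRRA libraries lay together below Veh, and the log2 fold change in RA vs Veh was -1.34 ± 0.07019 (SE, edgeR adjusted p = 2.62e-14). *Smoc2* was at 81.8 and 81.95 CPM in NR and 24.2 and 24.9 in NRRA, against 38.6 and 35.03 in Veh and 12.3 and 15.4 in RA. NRRA lay between RA and Veh without overlap, and the log2 fold change in RA vs Veh was -1.49 ± 0.084 (SE, edgeR adjusted p = 1.12e-13). The seventh gene called lower was *Vwa2*, a basement membrane protein, had 3.89 and 4.14 CPM in the Veh libraries, 1.19 and 0.717 with RA, 9.02 and 8.76 in the NR and 1.51 and 1.07 in the NRRA libraries, for which the log2 fold change in RA vs Veh was -2.23 ± 0.24 (SE, edgeR adjusted p = 3.06e-08).

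*Timp3*, a matrix-bound inhibitor of metalloproteinases (chromosome 10, 86300372 to 86349506, plus strand), stood at 89.8 and 85.5 CPM in RA and 79.99 and 81.9 in Veh, and at 536 and 565 in the NR and 212 and 211 in the NRRA libraries. The RA libraries lay slightly above Veh, and the log2 fold change in RA vs Veh was 0.01 ± 0.0503 (SE, edgeR adjusted p = 0.876). *Vcan*, the large proteoglycan versican, was at 535 and 548 CPM in NR and 259 and 257 in NRRA, against 169.9 and 195 in Veh and 196 and 203 in RA. RA again lay just above Veh, while the log2 fold change in RA vs Veh was 0.03 ± 0.0497 (SE, edgeR adjusted p = 0.677). *Aspn*, the collagen-binding proteoglycan asporin (chromosome 13, 49544443 to 49567565, plus strand), had the largest NR over Veh fold of all members, 60.9, and had 1.52 and 1.25 CPM in the Veh libraries, 0.415 and 0.968 with RA, 115 and 113 in the NR and 24.4 and 26.01 in the NRRA libraries. Its RA libraries both lay below Veh at few counts, and the log2 fold change in RA vs Veh was -0.9995 ± 0.31 (SE, edgeR adjusted p = 0.0109), just short of the fold asked for. Without the first RA library the value was -0.63 (edgeR adjusted p = 0.127), and without the second it was -1.815 (edgeR adjusted p = 0.00288), past the fold. *Col28a1*, a collagen, and *Egfl6*, a secreted EGF-repeat protein, had RA vs Veh log2 fold changes of 0.35 and 0.06 and were not called. Across the textbook list of collagen and matrix genes as a whole, 5 of 42 tested genes were called higher and 3 lower in RA vs Veh, with a median log2 fold change of -0.02. That list holds the members *Aspn*, *Prelp* and *Vcan*.

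**Figure D4:**
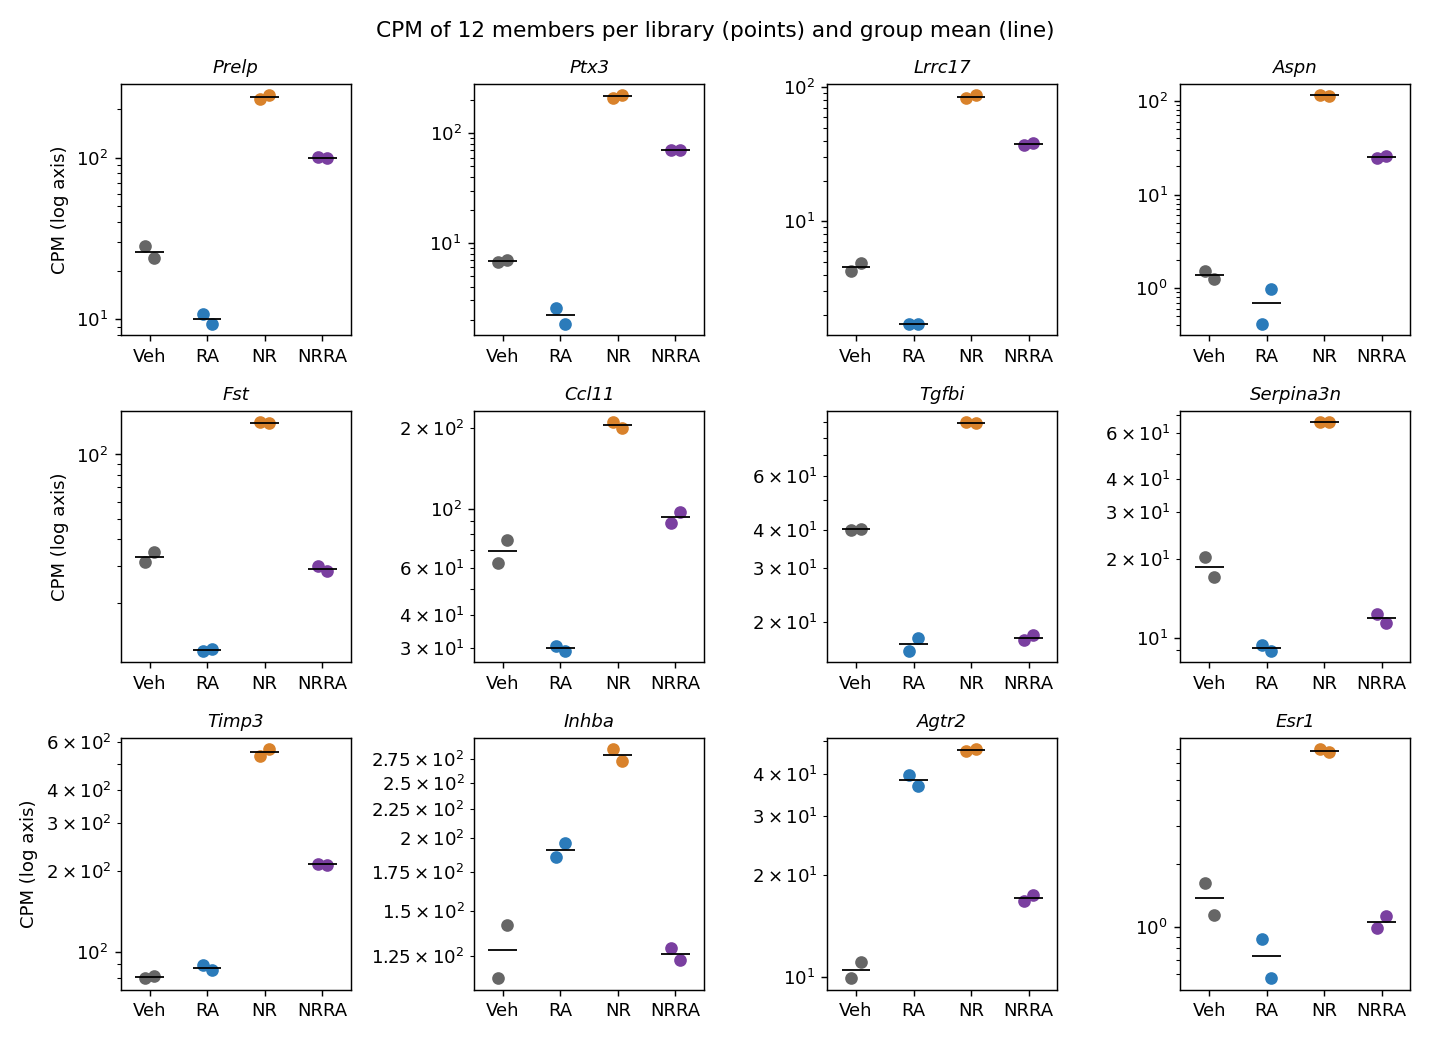
CPM of 12 members on log axes that differ between panels, with 1 point per library and a line at the group mean. NR is highest in each panel, RA lies below Veh in *Prelp*, *Ptx3*, *Lrrc17*, *Aspn*, *Fst*, *Ccl11*, *Tgfbi*, *Serpina3n* and *Esr1*, and it lies above Veh in *Timp3*, *Inhba* and *Agtr2*.

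Secreted signals, inhibitors and plasma proteins made up 11 members, 4 of them called lower in RA vs Veh and 0 higher. *Inhba* encodes the subunit of activin A, and *Fst* encodes follistatin, which binds activin and blocks it. *Inhba* stood at 186 and 196 CPM in RA and 115 and 142 in Veh, and at 285 and 272 in the NR and 129 and 123 in the NRRA libraries. RA lay above Veh without overlap, and the log2 fold change in RA vs Veh was 0.48 ± 0.063 (SE, edgeR adjusted p = 6.96e-07), a change under the fold asked for. *Fst* was at 142 and 141 CPM in NR and 29.8 and 28.4 in NRRA, against 31.4 and 34.8 in Veh and 11.9 and 12.2 in RA. Its RA libraries lay far below Veh, and the log2 fold change in RA vs Veh was -1.56 ± 0.079 (SE, edgeR adjusted p = 1.27e-14). The activin subunit and its inhibitor thus stood on opposite sides of Veh with RA alone and were both above Veh in NR. In the list of BMP, TGF-beta and activin genes, which holds *Fst*, *Inhba* and *Tgfbi*, 6 of 33 tested genes were called lower and 1 higher in RA vs Veh.

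*Ptx3*, a long pentraxin of the innate immune response (chromosome 3, 66219910 to 66225805, plus strand), had 6.73 and 6.94 CPM in the Veh libraries, 2.54 and 1.83 with RA, 211 and 223 in the NR and 70.5 and 70.3 in the NRRA libraries. It had the second largest NR over Veh fold, 29.7, and RA lay below Veh, where the log2 fold change in RA vs Veh was -1.79 ± 0.16 (SE, edgeR adjusted p = 6.87e-10). *Serpina3n*, an acute phase protease inhibitor, stood at 9.397 and 8.93 CPM in RA and 20.3 and 17.02 in Veh, and at 65.8 and 65.8 in the NR and 12.3 and 11.4 in the NRRA libraries. Both RA and NRRA lay below Veh, and the log2 fold change in RA vs Veh was -1.14 ± 0.09952 (SE, edgeR adjusted p = 6.76e-10). These were the 2 members in the list of complement and acute phase genes, in which 3 of 19 tested genes were called lower and 1 higher in RA vs Veh, while 14 were called higher and 0 lower in NRRA vs Veh.

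The chemokines *Ccl11* (eotaxin), *Ccl8* and *Cxcl14* and the cytokine *Il6* were members as well. *Ccl11* was at 211 and 201 CPM in NR and 88.01 and 97.3 in NRRA, against 62.6 and 75.9 in Veh and 30.5 and 29.2 in RA. It was the only one of the 4 called in RA vs Veh, and the log2 fold change in RA vs Veh was -1.32 ± 0.076 (SE, edgeR adjusted p = 2.19e-13). *Ccl8* had 28.6 and 29.8 CPM in the Veh libraries, 16.1 and 15.6 with RA, 62.2 and 56.97 in the NR and 21.97 and 21.6 in the NRRA libraries. RA and NRRA both lay below Veh, with the log2 fold change in RA vs Veh was -0.99 ± 0.078 (SE, edgeR adjusted p = 1.02e-10), just under the fold asked for. *Cxcl14* stood at 6.28 and 5.95 CPM in RA and 8.48 and 9.33 in Veh, and at 18.8 and 21.2 in the NR and 5.65 and 6.96 in the NRRA libraries, and the log2 fold change in RA vs Veh was -0.65 ± 0.13 (SE, edgeR adjusted p = 0.000249). *Il6* was at 23.4 and 20.9 CPM in NR and 9.41 and 10.4 in NRRA, against 9.57 and 9.98 in Veh and 8.57 and 10.3 in RA. The *Il6* libraries of Veh, RA and NRRA overlapped, and the log2 fold change in RA vs Veh was -0.14 ± 0.12 (SE, edgeR adjusted p = 0.357). In the list of chemokines and cytokines, 7 of 40 tested genes were called lower and 3 higher in RA vs Veh. The remaining members of the group were *Hgf* (the ligand of the Met receptor), *Pcsk5* (a proprotein convertase) and *Alb* (albumin), with RA vs Veh log2 fold changes of -0.56, -0.69 and -0.84, and 0 of these 3 were called.

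Receptors and cell surface proteins had 13 members, of which 5 were called lower and 1 higher in RA vs Veh. *Agtr2*, the type 2 receptor of angiotensin II (chromosome X, 21484544 to 21489164, plus strand), had 9.904 and 11.03 CPM in the Veh libraries, 39.6 and 36.9 with RA, 46.8 and 47.2 in the NR and 16.8 and 17.5 in the NRRA libraries. It was above Veh with either treatment alone and nearer to Veh with both, and the log2 fold change in RA vs Veh was 1.77 ± 0.084 (SE, edgeR adjusted p = 3.27e-15). *Ly6a*, the surface antigen Sca-1, stood at 24.8 and 21.95 CPM in RA and 48.5 and 48.6 in Veh, and at 146 and 139 in the NR and 65.1 and 66.6 in the NRRA libraries. *Ly6a* fell in RA, where the log2 fold change in RA vs Veh was -1.17 ± 0.069 (SE, edgeR adjusted p = 2.84e-13), and so did its neighbour *Ly6c1*, where the log2 fold change in RA vs Veh was -1.35 ± 0.23 (SE, edgeR adjusted p = 2.65e-05). *Ly6g6e*, of the same protein family, was at 7.08 and 6.76 CPM in NR and 0.628 and 0.666 in NRRA, against 2.42 and 2.795 in Veh and 0.363 and 0.395 in RA, and the log2 fold change in RA vs Veh was -2.85 ± 0.2986 (SE, edgeR adjusted p = 1.69e-08). *P2ry10b* and *Tmem204* were the other two called lower, with log2 fold changes of -1.16 and -1.39.

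*Flrt2*, an adhesion protein that binds Unc5 receptors, had 136 and 167 CPM in the Veh libraries, 98.5 and 92.96 with RA, 334 and 343 in the NR and 131 and 138 in the NRRA libraries. Its RA libraries lay below Veh, and the log2 fold change in RA vs Veh was -0.77 ± 0.064 (SE, edgeR adjusted p = 3.03e-10), under the fold asked for. *Lgr5*, a receptor of R-spondins and the member of the Wnt pathway list, stood at 0.2596 and 0.359 CPM in RA and 0.0474 and 0.349 in Veh, and at 11.4 and 12.7 in the NR and 0.738 and 1.07 in the NRRA libraries. Veh and RA overlapped near the level of a few counts, and the log2 fold change in RA vs Veh was 0.59 ± 0.66 (SE, edgeR adjusted p = 0.505). The rest of the group, *Epha7*, *Lpar4*, *Npffr1*, *Itgb8* and *Susd3*, had RA vs Veh log2 fold changes between -0.98 and 0.27 and were not called.

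Among 8 transcription factors and chromatin proteins, *Onecut2*, *Esr1* and *Neurog3* were called lower in RA vs Veh and 0 were called higher. *Epas1*, the hypoxia-inducible factor 2 alpha subunit, was at 197 and 205 CPM in NR and 89.97 and 88.1 in NRRA, against 62.9 and 61.1 in Veh and 46.5 and 40.6 in RA. RA lay below Veh without overlap, and the log2 fold change in RA vs Veh was -0.62 ± 0.064 (SE, edgeR adjusted p = 1.15e-08), a change under the fold asked for. *Hif3a*, a related hypoxia-inducible factor subunit, had 12.7 and 10.4 CPM in the Veh libraries, 8.77 and 8.75 with RA, 27.3 and 27.7 in the NR and 7.35 and 7.33 in the NRRA libraries, and the log2 fold change in RA vs Veh was -0.51 ± 0.11 (SE, edgeR adjusted p = 0.000514). *Esr1*, estrogen receptor alpha, stood at 0.883 and 0.574 CPM in RA and 1.61 and 1.15 in Veh, and at 6.94 and 6.76 in the NR and 0.997 and 1.13 in the NRRA libraries. Its RA libraries both lay below Veh, and the log2 fold change in RA vs Veh was -1.08 ± 0.32 (SE, edgeR adjusted p = 0.00765). *Neurog3*, a factor of undifferentiated spermatogonia, had 8 and 9 counts in Veh and 0 and 1 in RA, where the empty library allows up to 0.156 CPM by 3 counts. Its NR libraries had 4.16 and 4.08 CPM and its NRRA libraries 5 and 8 counts. The fall of *Neurog3* in RA was called by edgeR (adjusted p = 0.000475), and no fold is given at so few counts. *Onecut2* had a log2 fold change of -1.03 in RA vs Veh, and *Hmgn5* and *Nkx1-1* were at -0.04 and -0.55 and were not called.

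Germ cell and early embryo genes gave 3 members. *Pramef12*, of the PRAME family, was at 78.7 and 79.2 CPM in NR and 35.3 and 35.04 in NRRA, against 27.96 and 27.7 in Veh and 24.3 and 23.4 in RA. RA lay slightly below Veh, and the log2 fold change in RA vs Veh was -0.33 ± 0.069 (SE, edgeR adjusted p = 0.000384), well under the fold asked for. *Dppa3*, a maternal factor that protects DNA methylation, had 36 and 21 counts in Veh, 3 and 4 in RA, and 3 and 2 in NRRA. It was called lower in RA vs Veh, and the log2 fold change in RA vs Veh was -3.28 ± 0.46 (SE, edgeR adjusted p = 1.86e-06). *Pxt1*, a testis gene, had 1.09 and 1.15 CPM in the Veh libraries, 0.623 and 0.681 with RA, 6.23 and 5.79 in the NR and 0.923 and 0.5995 in the NRRA libraries, and the log2 fold change in RA vs Veh was -0.86 ± 0.33 (SE, edgeR adjusted p = 0.0388). The undifferentiated spermatogonia markers moved the same way as *Neurog3* and *Dppa3* in RA, with 10 of 16 called lower in RA vs Veh and 0 higher, and their part in these results was not tested.

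Of 8 genes for neuronal adhesion, synapses and cytoskeleton, *Lrrc4c* was called lower in RA vs Veh and 0 were called higher. *Chl1*, an adhesion molecule of the L1 family, had the largest NR over NRRA fold of all members, 13.5, and stood at 3.48 and 2.19 CPM in RA and 4.03 and 4.44 in Veh, and at 31.4 and 32.4 in the NR and 1.74 and 2.07 in the NRRA libraries. RA lay below Veh with a wide gap between its libraries, and the log2 fold change in RA vs Veh was -0.73 ± 0.19 (SE, edgeR adjusted p = 0.00256), under the fold asked for. Without the first RA library the value was -1.06, and without the second it was -0.37 (edgeR adjusted p = 0.186). *Tubb3*, a neuronal tubulin, was at 21.02 and 21.2 CPM in NR and 7.68 and 7.33 in NRRA, against 8.58 and 8.58 in Veh and 6.75 and 5.38 in RA, and the log2 fold change in RA vs Veh was -0.63 ± 0.13 (SE, edgeR adjusted p = 0.00025). *Lrrc4c*, a netrin-G ligand, had a log2 fold change of -1.02. *Syn3* is described with its overlapping gene below, and *Nos1ap*, *Slitrk2*, *Rab3c* and *Trim67* had log2 fold changes between -0.79 and 0.26 with NR means of at most 4.12 CPM.

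Among 6 intracellular signalling genes, *Adcy10* and *Tbc1d30* were called lower in RA vs Veh. *Adcy10*, the soluble adenylyl cyclase known from sperm, had 1.801 and 2.795 CPM in the Veh libraries, 0.363 and 0.538 with RA, 10.6 and 9.87 in the NR and 0.4799 and 0.5995 in the NRRA libraries. RA and NRRA lay together far below Veh, and the log2 fold change in RA vs Veh was -2.38 ± 0.32 (SE, edgeR adjusted p = 9.83e-07). *Tbc1d30*, a Rab GTPase-activating protein, stood at 1.82 and 1.61 CPM in RA and 4.08 and 3.39 in Veh, and at 13.2 and 13.9 in the NR and 1.11 and 1.33 in the NRRA libraries. It fell in RA, where the log2 fold change in RA vs Veh was -1.24 ± 0.199 (SE, edgeR adjusted p = 1.32e-05). *Pde4c*, a cyclic AMP phosphodiesterase, was at 15.96 and 16.9 CPM in NR and 4.098 and 3.83 in NRRA, against 1.94 and 1.298 in Veh and 1.71 and 1.54 in RA, with the log2 fold change in RA vs Veh was -0.12 ± 0.25 (SE, edgeR adjusted p = 0.744). *Grk3*, *Dapk2* and *Pik3r6* had log2 fold changes of 0.17, -0.39 and -0.73 and were not called. Of 5 channels and transporters, *Slc1a3*, a glutamate transporter, and *Kcns2*, a potassium channel subunit, were called lower in RA vs Veh. *Slc1a3* had 1.23 and 1.55 CPM in the Veh libraries, 0.675 and 0.681 with RA, 10.3 and 10.1 in the NR and 1.99 and 2.098 in the NRRA libraries, and the log2 fold change in RA vs Veh was -1.13 ± 0.2999 (SE, edgeR adjusted p = 0.00337). *Kcns2* had 0.142 and 1.15 CPM in Veh, and its log2 fold change of -1.96 turned to 0.17 without the second Veh library and shrank to -0.88 without the second RA library. *Atp8b1* and *Scn10a* were not called, with log2 fold changes of -0.61 and -0.64.

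Of 4 innate immunity and stress genes, *Serpinb1a*, an inhibitor of neutrophil proteases, was called lower in RA vs Veh, and the log2 fold change in RA vs Veh was -1.21 ± 0.22 (SE, edgeR adjusted p = 6.43e-05). *Dram1*, an autophagy regulator induced by p53, stood at 14.6 and 12.9 CPM in RA and 24.1 and 23.8 in Veh, and at 57.9 and 58.9 in the NR and 21.4 and 22.2 in the NRRA libraries. Its RA libraries lay below Veh, and the log2 fold change in RA vs Veh was -0.91 ± 0.083 (SE, edgeR adjusted p = 1.56e-09), just under the fold asked for. *Pycard*, the inflammasome adaptor, and *Trim12a* were at log2 fold changes of -0.40 and -0.28. A further 11 members have other roles, and 9 of them were called lower in RA vs Veh, namely *Ccdc141*, *Prr16*, *Tmem44*, *Asb9*, *Rtl3*, *Kif19a*, *Ttc34*, *Cbr2* and *Lbhd2*. *Cbr2*, a carbonyl reductase, was at 5.76 and 6.42 CPM in NR and 1.26 and 1.799 in NRRA, against 1.52 and 1.098 in Veh and 0.312 and 0.323 in RA, and the log2 fold change in RA vs Veh was -2.13 ± 0.39 (SE, edgeR adjusted p = 7.88e-05). *Kif19a*, a kinesin of cilia, had 4.27 and 4.54 CPM in the Veh libraries, 1.97 and 2.295 with RA, 9.78 and 9.61 in the NR and 1.59 and 1.27 in the NRRA libraries, and the log2 fold change in RA vs Veh was -1.13 ± 0.18 (SE, edgeR adjusted p = 1.35e-05). *Myo7a*, an unconventional myosin, and *Cenpp*, a centromere protein, were not called, with log2 fold changes of -0.58 and 0.11. Of 7 predicted or unnamed genes, *Gm15851* and *Gm47040* were called lower, and both overlap another member. *2010300C02Rik* stood at 13.5 and 14.9 CPM in RA and 14.5 and 13.9 in Veh, and at 34.1 and 35.5 in the NR and 7.68 and 5.76 in the NRRA libraries, and the log2 fold change in RA vs Veh was -0.09545 ± 0.1039 (SE, edgeR adjusted p = 0.492). *Gm7694*, *Gm7967*, *Gm16191* and *Gm9918* had log2 fold changes between -0.73 and -0.29 and were not called.

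Where NRRA came to rest differed between members. In NRRA vs Veh, 14 members (15.9%) were called higher, against a background of 9.91%, and 11 (12.5%) were called lower, against a background of 6.02%. Both groups entered the rule, each against NR, so these counts describe the members chosen by it. The matrix group held 7 of the 14 called higher, namely *Timp3*, *Prelp*, *Ccn5*, *Aspn*, *P4ha3*, *Lrrc17* and *Egfl6*. The others were *Ptx3*, *Syn3*, *Lpar4*, *Lgr5*, *Pde4c*, *Rtl3* and *Gm15851*. For *Aspn*, the log2 fold change in NRRA vs Veh was 4.07 ± 0.14 (SE, edgeR adjusted p = 9.69e-19), and for *Ptx3*, the log2 fold change in NRRA vs Veh was 3.25 ± 0.082 (SE, edgeR adjusted p = 1.16e-21). The 11 called lower were *Tgfbi*, *Vwa2*, *Ly6g6e*, *Chl1*, *Tbc1d30*, *Adcy10*, *Dppa3*, *Tmem44*, *Kif19a*, *Lbhd2* and *2010300C02Rik*. For *Tgfbi*, the log2 fold change in NRRA vs Veh was -1.29 ± 0.067 (SE, edgeR adjusted p = 6.3e-15), and for *Chl1*, the log2 fold change in NRRA vs Veh was -1.26 ± 0.1955 (SE, edgeR adjusted p = 3.92e-06). The fibroblast marker sum was also higher in NRRA than in Veh, by 1.33 times, and its part in these differences was not tested.

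**Figure D5:**
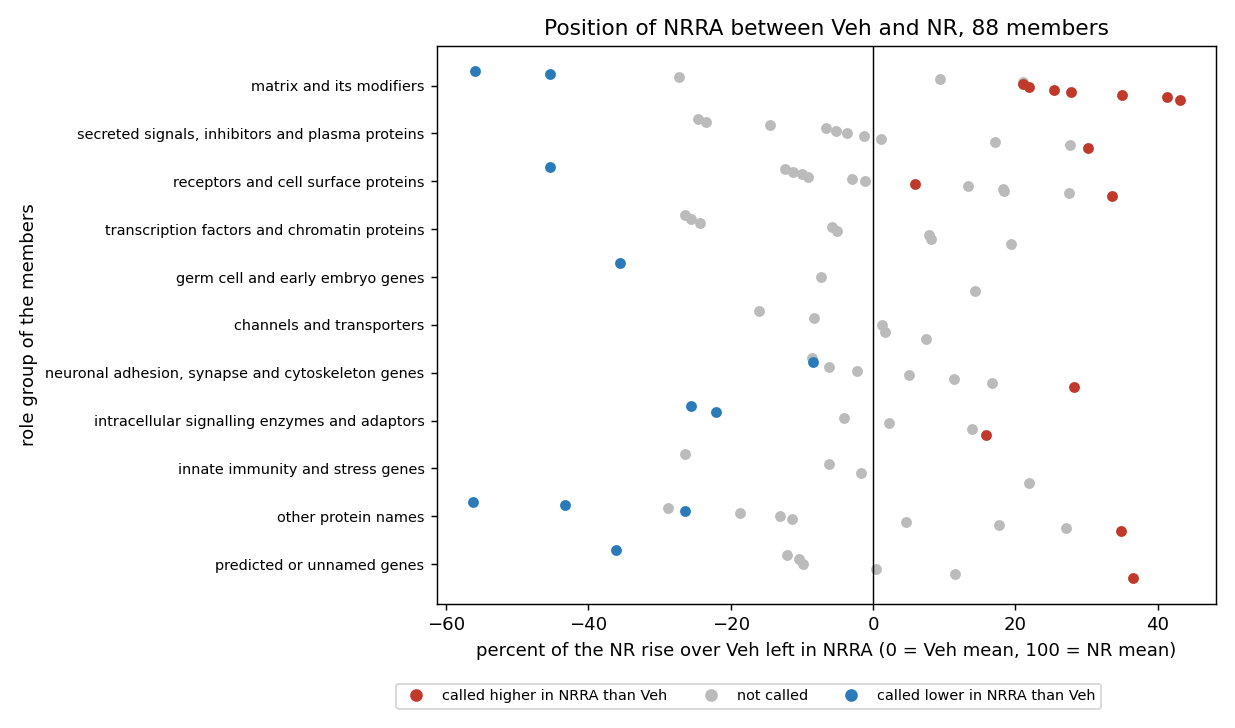
Share of the rise from Veh to NR that was left in NRRA (horizontal axis, percent, with 0 at the Veh mean) for the 88 members in rows by role, coloured by the call in NRRA vs Veh. The matrix group holds both the highest value, 43.1% for *Ccn5*, and values near the lowest, -55.9% for *Vwa2* and -45.4% for *Tgfbi*.

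With retinoic acid present in both media, many members were still higher under restriction. In NRRA vs RA, 30 members (34.1%) were called higher, against a background of 4.61%, and 2 (2.27%) were called lower, against a background of 3.68%. NRRA entered the rule with an upper limit only, and RA did not enter it. The median log2 fold change of the members was 0.54, beside 0.02 over all genes tested. The fibroblast markers had the same median, 0.54, with 9 of 22 called higher and 2 lower, and their sum was 29890 to 30650 CPM in NRRA against 19290 to 20390 in RA. Of 18 myofibroblast and contractile genes, 8 were called higher and 1 lower, with a median of 0.83. The part of these cells in the members' rise was not tested. For *Ptx3*, the log2 fold change in NRRA vs RA was 5.04 ± 0.099 (SE, edgeR adjusted p = 9.4e-24), and for *Lrrc17*, the log2 fold change in NRRA vs RA was 4.45 ± 0.11 (SE, edgeR adjusted p = 1.22e-21). The genes called lower were *Agtr2*, for which the log2 fold change in NRRA vs RA was -1.16 ± 0.072 (SE, edgeR adjusted p = 3.26e-13), and *2010300C02Rik*, for which the log2 fold change in NRRA vs RA was -1.102 ± 0.11 (SE, edgeR adjusted p = 6.62e-09). By the 3 calls together, 7 members were lower in RA than Veh and higher in NRRA than in both, among them *Prelp*, *Ptx3* and *Ccn5*. A further 12, such as *Ccl11*, *Fst* and *Ly6a*, were lower in RA than Veh and higher in NRRA than RA, with no call between NRRA and Veh. Another 9, such as *Tgfbi* and *Adcy10*, were called lower than Veh in both RA and NRRA with no call between those. *Timp3*, *Aspn*, *Lgr5* and 4 others were called higher in NRRA than in both RA and Veh with no call in RA vs Veh. For 37 members 0 of the 3 comparisons gave a call. The shares of these joint patterns over all genes tested were not computed, so the counts only sort the members.

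Some members share a place in the genome, and 9 pairs lay within 100 kb of each other. *Timp3* lies within *Syn3*, a synapsin gene, on the opposite strand, and 21.3% of its exon bases overlap those of *Syn3*. *Syn3* was at 228 and 236 CPM in NR and 89.9 and 91.1 in NRRA, against 33.98 and 35.4 in Veh and 40.6 and 38.7 in RA, which was 41.9% to 45.2% of the *Timp3* count in all 8 libraries. The antisense gene *Gm15851* held 15.6% to 18.7% of the *Prelp* count, and *Gm47040* 4.42% to 11.3% of the *Fst* count. The third antisense gene, *Gm16191*, held 44.0% to 68.4% of the *Pxt1* count. Whether counting used the strand of the reads is not given in the sources used here, so each of these pairs may be 1 signal counted in both genes. Without the lesser gene of each of these pairs, 35 members were called lower in RA vs Veh and 27 higher in NRRA vs RA. *Aspn* is nested in *Cenpp* on the opposite strand, and the ratio of *Cenpp* to *Aspn* differed 88.6-fold between libraries. A changing ratio cannot tell whether *Cenpp* counts hold part of the *Aspn* signal, because *Cenpp* was also counted where *Aspn* was low. This was not tested. *Gm7694* and *Nos1ap* overlap on the same strand. The pairs *Ly6a* and *Ly6c1* (46.0 kb), *Ccl11* and *Ccl8* (52.2 kb) and *Lpar4* and *Rtl3* (80.0 kb) lay apart, and *Ly6a* with *Ly6c1* and *Ccl11* with *Ccl8* are members of gene families with similar sequences. Chromosome 13 held 12 members, and chromosomes 1, 10 and X held 8 each.

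Promoter sequences, from 250 bases before to 50 bases after the gene start, were found in RefSeq on GRCm38.p6 for 62 of the 88 members, as 71 promoters. The nuclear receptor half-site AGGTCA, searched on both strands, was in 9.86% of the members' promoters and in 16.3% of all 32851 promoters. The TATA box TATAAA was in 11.3% and 13.6%, the AP-1 motif TGANTCA in 7.04% and 7.81%, the CRE motif TGACGTCA in 1.41% and 1.79%, and the E-box CACGTG in 5.63% and 7.15%. The forkhead motif TGTTTAC was in 7.04% and 3.65%, and the TEAD motif CATTCC in 5.63% and 14.7%. A match of letters is a description and not a binding site. The promoters printed next are those of *Aspn*, which had the largest NR over Veh fold, of *Ly6c1* and *Cxcl14*, which hold a half-site, and of *Agtr2*, which alone was called higher in RA vs Veh and holds 0 of the motifs. Capitals mark TATAAA or its reverse complement in *Aspn*, TATAAA and then AGGTCA in *Ly6c1*, and the reverse complement of AGGTCA in *Cxcl14*.
Aspn (chr13:49544193-49544492, plus strand, GRCm38.p6): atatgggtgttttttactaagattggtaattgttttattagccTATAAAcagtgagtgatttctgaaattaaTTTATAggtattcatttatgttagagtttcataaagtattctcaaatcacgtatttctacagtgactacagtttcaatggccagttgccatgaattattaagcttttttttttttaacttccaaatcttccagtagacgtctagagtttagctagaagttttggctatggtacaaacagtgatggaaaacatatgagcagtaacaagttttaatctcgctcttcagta
Ly6c1 (chr15:75048788-75049087, minus strand, GRCm38.p6): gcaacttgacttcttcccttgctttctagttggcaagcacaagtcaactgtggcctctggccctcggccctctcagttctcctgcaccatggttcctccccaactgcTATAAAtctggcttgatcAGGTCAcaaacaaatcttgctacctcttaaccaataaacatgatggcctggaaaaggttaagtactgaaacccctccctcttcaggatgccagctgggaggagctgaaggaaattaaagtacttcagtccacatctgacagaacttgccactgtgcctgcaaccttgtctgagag
Cxcl14 (chr13:56296502-56296801, minus strand, GRCm38.p6): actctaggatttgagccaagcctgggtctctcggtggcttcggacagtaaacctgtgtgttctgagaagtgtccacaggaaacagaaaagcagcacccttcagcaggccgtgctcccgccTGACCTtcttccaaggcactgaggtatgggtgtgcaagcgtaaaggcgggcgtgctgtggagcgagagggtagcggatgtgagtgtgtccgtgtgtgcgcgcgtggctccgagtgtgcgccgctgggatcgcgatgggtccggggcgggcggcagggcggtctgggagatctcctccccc
Agtr2 (chrX:21484374-21484673, plus strand, GRCm38.p6): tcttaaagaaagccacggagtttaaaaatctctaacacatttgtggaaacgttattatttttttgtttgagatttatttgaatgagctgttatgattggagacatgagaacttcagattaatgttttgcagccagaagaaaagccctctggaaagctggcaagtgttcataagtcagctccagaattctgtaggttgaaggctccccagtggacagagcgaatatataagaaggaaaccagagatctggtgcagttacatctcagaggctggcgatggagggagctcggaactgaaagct
In the printed promoters, the half-site lies 125 bases before the start in *Ly6c1*, which fell in RA, and 130 bases before it in *Cxcl14*, which was not called. Another *Ly6c1* promoter (chr15:75048614-75048913) holds 0 of the motifs. In all, 7 members hold a half-site, and 2 of them, *Ly6c1* and *P2ry10b*, were called lower in RA vs Veh and 0 higher.

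Levels can be compared between genes only per length of exon. In NR, *Ccl11* stood highest at 190.2 CPM per kb, followed by *Ly6a* at 118 and *Ccl8* at 117 CPM per kb, while *Timp3* was at 67.5 CPM per kb. The retinoid metabolism and target list, which holds 0 members, had 10 of 25 tested genes called higher and 2 lower in RA vs Veh. In NRRA vs Veh, 12 of these genes were called higher and 4 lower.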

How the data were processed

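RNA-seq of 8 libraries, 2 per condition, was analysed. The authors deposited raw counts of reads per gene, as whole numbers without normalization; the submitters' processing notes name mm10, bcl2fastq, STAR 2.6.1c and featureCounts 1.6.4. The annotation release and strand setting are not given in the sources used here. The labels and the study's methods name different library kits and GDNF doses. Each of the 8 count columns was matched to its sample by its label.

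CPM used the column totals, and members were chosen on Veh, NR and NRRA. Members and lists were chosen with earlier results of these data known, and roles were assigned from textbook knowledge after the members were known, without regard to their values. The members named are those with the highest NR CPM overall or in their role, the largest NR over NRRA fold or RA vs Veh change, membership of a list or a neighbour within 100 kb. Others are named to account for the members, of which 2 are counted but not reported here by name.

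Counts were filtered with filterByExpr, normalized with TMM and tested with edgeR 4.0.16 in R 4.3.3 by the quasi-likelihood F test on all 8 libraries, with 4 residual degrees of freedom and Benjamini-Hochberg adjustment over 20477 genes. The SE is the absolute log2 fold change over the square root of F. The model was also run on counts simulated from the means and dispersions fitted here, which cannot test how real replicates differ. With 2 libraries per group, p-values measure the spread between these libraries, which the fit moderates for each gene toward that of all genes tested. GENCODE M21 on GRCm38 gave positions, and 55240 of 55421 identifiers were found in it. Alternatives were DESeq2 1.42.0, other scalings, filters and thresholds, a replicate block and each library left out. Figures were drawn with matplotlib 3.10.9 in Python 3.11.15.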

Additional observations from a re-analysis of the deposited data

How the results depend on the processing

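With TMM-scaled CPM the rule gave 97 genes, with 0.1 or 1 CPM added 100 or 75, with a floor of 5 or 1 CPM 71 or 97, and with 3 times in both folds 26. Leaving out 1 library gave 84 to 91 genes. The next 2 alternatives were added after seeing the data. The folds taken per fibroblast marker sum left 34 genes, and leaving out the lesser gene of overlapping pairs moved 0 counts of calls by over 1.5 times. Without the fold threshold, members with an adjusted p under 0.05 numbered 2 higher and 55 lower in RA vs Veh, 25 higher and 28 lower in NRRA vs Veh, and 45 higher and 6 lower in NRRA vs RA. Over all 20477 genes tested, those numbers were 4048 higher and 4789 lower in RA vs Veh. They were 6171 higher and 5880 lower in NRRA vs Veh, and 4283 higher and 3971 lower in NRRA vs RA. In NRRA vs Veh the members' shares were thus near those of all genes.

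Under DESeq2, DESeq2's size factors in edgeR, no filter, and a fit to the 4 libraries compared, each count of calls stayed within 1.5 times. Same-numbered libraries showed no shared deviations, with correlations from -0.03 to 0.02. This cannot tell whether they were set up together. With the number as a block, 38 members were called lower and 1 higher in RA vs Veh, 14 higher and 12 lower in NRRA vs Veh, and 29 higher and 2 lower in NRRA vs RA. Leaving out 1 library gave 32 to 40 called lower and 1 called higher in RA vs Veh. It gave 14 to 15 higher and 11 to 14 lower in NRRA vs Veh, and 28 to 29 higher and 1 to 3 lower in NRRA vs RA, where the count of 1 came without the second NRRA library.

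Of 32 members followed singly in RA vs Veh, 4 changed sign in 1 setting each. Over the settings that leave out 1 library, the log2 fold change of *Vcan* ran from -0.044 to 0.148, that of *Lgr5* from -0.21 to 2.54, that of *Kcns2* from -4.07 to 0.17, and that of *Timp3* from -0.035 to 0.060. The change of sign came without the first Veh library for *Vcan* and *Lgr5*, without the second for *Kcns2*, and without the first RA library for *Timp3*. The cause was not tested. An adjusted p moved above 0.05 in 12 settings of 4 members, *Pxt1*, *Kcns2*, *Aspn* and *Chl1*, and *Vcan* passed it without the second Veh library, with a log2 fold change of 0.15. The log2 fold changes of *P4ha3* and *Serpina3n* without the first Veh library (-0.99 and -0.98) and of *Ccdc141* without the second (-0.97) fell just short of a fold of 2. Members near the floor of 2 CPM had wide errors, as *Scn10a* with 45 and 52 counts in NR and an SE of 0.57 in RA vs Veh.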
